A study of Cunninghamia lanceolata with 3 samples.

Results

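Beta-1,3-glucanases and callose synthases act on callose, a beta-1,3-linked glucan of plant cell walls. The unigenes (assembled transcript sequences) described here are those whose best protein hit carries a name of either enzyme. Of 53590 unigenes with a read, 15 matched these names, and the 10 with the most reads over the 3 libraries were kept. They are 4 beta-1,3-glucanases and 6 callose synthases. They were chosen by their number of reads, so their abundance is a description. The last one kept, Unigene3658, had 88 reads in all, and the first one left out, Unigene997, had 56.

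The study sequenced messenger RNA of Chinese fir (Cunninghamia lanceolata), a conifer of the cypress family, taken at 3 stages of the vascular cambium (dormant, reactivating, active), with 1 library for each. The cambium is the layer of dividing cells between wood and bark, and it was taken as tangential cryosections of trees aged 16 years, with a height of 15 m and a diameter of 12 cm, that grew under natural conditions. The labels name no genotype or treatment, and the number of trees in a library is not stated. No stage has a second library, hence no replicate check and no test, so each difference describes these libraries. Parentheses after a ratio hold its 95% exact (Clopper-Pearson) counting interval, which covers the sampling of reads only.

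Each library held 5.84 M to 5.85 M uniquely mapped reads (M for mega) on 49675 to 50498 unigenes. The members took 2774 dormant, 3619 reactivating and 4124 active reads, which is 0.0474%, 0.0619% and 0.0706% of the reads. The libraries also differed in markers of neighbouring tissues. The summed level of 34 xylem marker unigenes, mostly laccases, was 1541, 798 and 4480 RPKM (reads divided by unigene length and by library total) in the dormant, reactivating and active libraries. The 3 phloem marker unigenes, all sucrose transporters, summed to 133, 28.9 and 34.2 RPKM, and none was at 0 in any library. The 54 cambium and meristem markers summed to 1891, 2746 and 3516 RPKM, and the 24 green tissue markers to 226, 190 and 175 RPKM. In bulk tissue, fewer cells of a type and less RNA per cell cannot be told apart, and the part of these marker differences in the results below was not tested.

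Callose synthases are large membrane proteins that build callose from UDP-glucose. They lay it down around plasmodesmata (the channels between plant cells), on the pores of sieve plates in the phloem, and in the new cell plate during division. Beta-1,3-glucanases cut callose, so that both enzymes together set how open plasmodesmata and sieve pores are. In poplar buds, glucanases of glycoside hydrolase family 17 are known to take part in the reopening of plasmodesmata at the end of dormancy. Other members of that family are pathogenesis-related proteins, which act on the walls of fungi.

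The 10 unigenes ran from 289 to 5096 bases in length, against a median of 323 bases over all unigenes, and 8 of them were longer than this median. A callose synthase transcript spans several kilobases, so most of the synthase unigenes cover a part of one. The longest, Unigene11761, has only 12 longer unigenes in the series. Best hits came from other species, and the names given are those of the hits. Only Unigene57007 was named after a conifer protein, from Cryptomeria japonica of the same family. Unigene53711 and Unigene762 share their best hit, a callose synthase of Arabidopsis thaliana, so that they may come from 1 gene or from 2 close relatives. The gene ontology term for anchoring to the membrane was given to 2 members, the glucanases Unigene11657 and Unigene42904, and to 47 unigenes in all. A lipid anchor on the outer side of the plasma membrane is known for plasmodesmal glucanases in Arabidopsis.

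The 4 glucanases followed different courses over the 3 stages. Unigene57007 was nearly absent from the dormant library and abundant in both others, while Unigene41697 was abundant in the dormant library and nearly absent from both others. Unigene11657 was about 4-fold higher in the reactivating and active libraries than in the dormant one, and Unigene42904 stayed within 2-fold throughout.

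Unigene57007, a putative beta-1,3-glucanase, had 0.182, 260.5 and 226 RPKM in the dormant, reactivating and active libraries. By level it ranked 49617 among the dormant, 1255 among the reactivating and 1620 among the active unigenes. In each of the later stages 940 of its 941 bases were covered, against 49 bases by the single dormant read. The reactivating over dormant ratio, from 1434 reads and 1 read, was 1434 (257 to 56668), and the active over dormant ratio was 1242 (223 to 49103). Between the active and reactivating libraries it was 1.15-fold lower (1.07 to 1.25) in the active library.

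Unigene41697, named after an endo-beta-1,3-glucanase of wild soybean, went the other way, with 201, 2.37 and 0 RPKM in the dormant, reactivating and active libraries. By level it ranked 41780 among the reactivating unigenes, against 1837 among the dormant ones. Its reads numbered 4 in the reactivating against 339 in the dormant library, which is 84.8-fold lower (32.8 to 313). In the active library it had 0 reads. With the 0 set to a floor of 3 reads it was 113-fold lower than in the dormant library, and the counting interval starts at 91.3-fold. The reactivating and active libraries held too few of its reads for a comparison between them.

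Unigene11657, similar to a beta-1,3-glucanase of grapevine, had 17.01, 69.2 and 66.9 RPKM in the dormant, reactivating and active libraries. Against the dormant library it was 4.07-fold higher (3.49 to 4.76) in reactivating cambium and 3.93-fold higher (3.37 to 4.61) in active cambium. The active and reactivating libraries differed by a factor whose interval includes 1 (1.04-fold lower in active, 0.938 to 1.14). Unigene42904, whose hit is the family 17 glucanase GH17_65 of hybrid aspen, had 209.9, 139 and 223 RPKM. It was 1.51-fold lower (1.28 to 1.78) in the reactivating than in the dormant library and 1.61-fold higher (1.37 to 1.89) in the active than in the reactivating library. Its active and dormant levels were the closest pair, at a ratio of 1.06 (0.920 to 1.23).

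**Figure D1:**
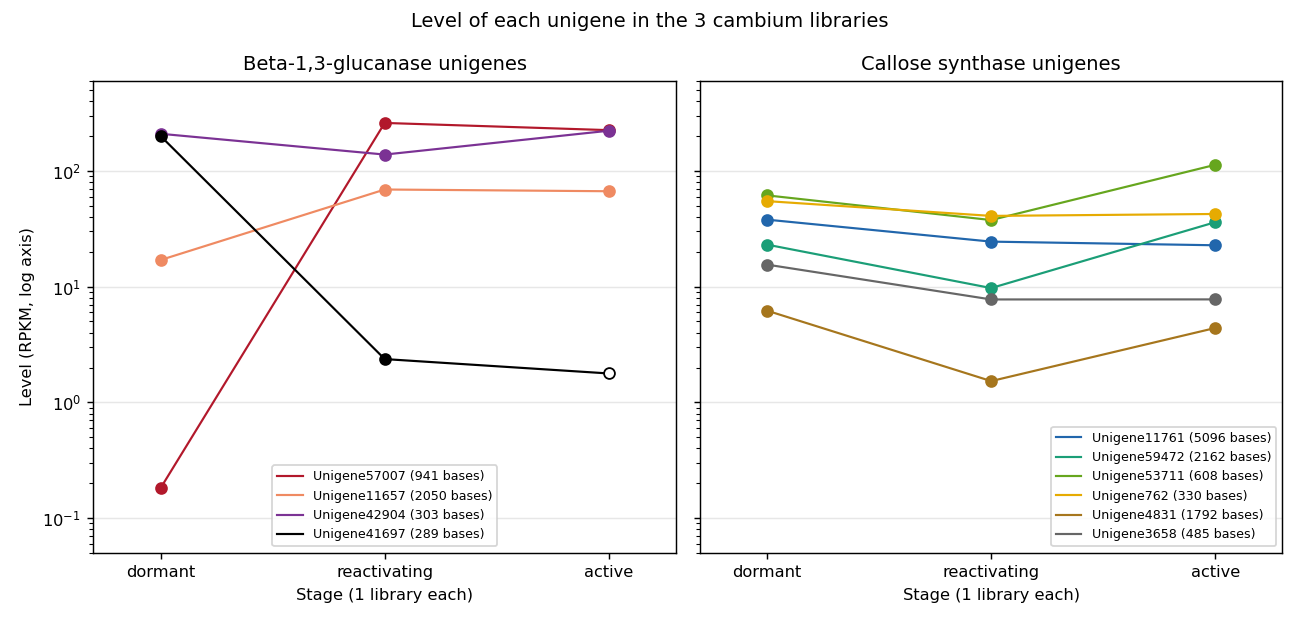
Level in RPKM on a log axis of the 4 beta-1,3-glucanase unigenes (left) and the 6 callose synthase unigenes (right) in the dormant, reactivating and active libraries, 1 library a stage. Open points mark a library with 0 reads, drawn at the level of 3 reads. The lines of Unigene57007 and Unigene41697 cross between the dormant and reactivating libraries, while all 6 synthases are lower in the reactivating than in the dormant library.

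The make-up of the summed level of the 4 glucanases was therefore different in each library, although the sum was similar. Glucanases outside the 10 members are not in this sum. Summed over the 4 unigenes the level was 428, 471 and 516 RPKM in the dormant, reactivating and active libraries. In the dormant library Unigene42904 gave 49.1% and Unigene41697 gave 46.9% of this level. The reactivating library drew 55.3% from Unigene57007 and 29.5% from Unigene42904. In the active library these 2 unigenes gave 43.8% and 43.3%. Counted as reads, which weight long unigenes more, Unigene57007 held 57.0% (55.1 to 59.0) of the 2514 glucanase reads in the reactivating library, against 0.109% (0.00276 to 0.607) of 916 in the dormant library. Unigene41697 held 0 of 2437 glucanase reads in the active library, and the counting interval of its share reaches up to 0.151%.

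The size of the glucanase difference depended on this weighting. By summed reads the glucanases had 2514 in the reactivating library against 916 in the dormant one, and the level per length differed far less, at 471 and 428 RPKM. Without Unigene57007 the summed reads were 1080 and 915, and the summed levels were 210.4 and 427 RPKM.

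The callose synthases moved in a narrower range. All 6 were lower in the reactivating than in the dormant library, by 1.34-fold to 4.06-fold, although for Unigene762 the interval includes no difference. In the active library they split. Unigene59472, Unigene53711 and Unigene4831 were 2.88-fold to 3.71-fold higher than in the reactivating library, and Unigene11761, Unigene762 and Unigene3658 were not.

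Unigene59472, similar to Callose synthase 3, a protein that acts at plasmodesmata in Arabidopsis, had 23.1, 9.73 and 36.1 RPKM in the dormant, reactivating and active libraries. It was 2.37-fold lower (1.92 to 2.96) in the reactivating than in the dormant library and 3.71-fold higher (3.04 to 4.57) in the active than in the reactivating library. Unigene53711 had 61.6, 37.7 and 113 RPKM, 1.63-fold lower (1.31 to 2.04) in reactivating than in dormant and 3.003-fold higher (2.46 to 3.68) in active than in reactivating. For both, the active level was also above the dormant one, by 1.56-fold (1.35 to 1.82) for Unigene59472 and 1.84-fold (1.55 to 2.18) for Unigene53711. Unigene4831, a low unigene with 127 reads in all, had 6.20, 1.53 and 4.39 RPKM. It was 4.06-fold lower (2.32 to 7.52) in reactivating than in dormant and 2.88-fold higher (1.60 to 5.45) in active than in reactivating.

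Unigene11761, named after a callose synthase catalytic subunit of cotton, is the longest synthase member and the one with the most reads. It had 1132, 731 and 679 reads and 38.0, 24.5 and 22.8 RPKM in the dormant, reactivating and active libraries. It was 1.55-fold lower (1.41 to 1.70) in reactivating and 1.67-fold lower (1.51 to 1.83) in active than in dormant. The active and reactivating levels were not separated by counting error (1.08-fold lower in active, 0.967 to 1.2). Reads covered 91.8%, 78.3% and 85.0% of its length in the 3 libraries. At a length of 49 bases, the median stretch covered by unigenes with 1 read, evenly placed reads would have covered 99.9% of it in the reactivating library. What lies behind the uncovered bases was not tested.

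Unigene762 had 54.9, 40.9 and 42.5 RPKM, and the interval of each of its 3 ratios includes 1. It shares its best hit with Unigene53711, yet the active over reactivating ratio was 1.04 (0.754 to 1.43) for Unigene762, outside the interval of Unigene53711. Unigene3658, the least read member, had 15.5, 7.75 and 7.76 RPKM. With 22 reads in the reactivating against 44 in the dormant library it stood at the 2-fold line, 2.0-fold lower (1.17 to 3.50), and its 22 reads in the active library gave the same figure against dormant.

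**Figure D2:**
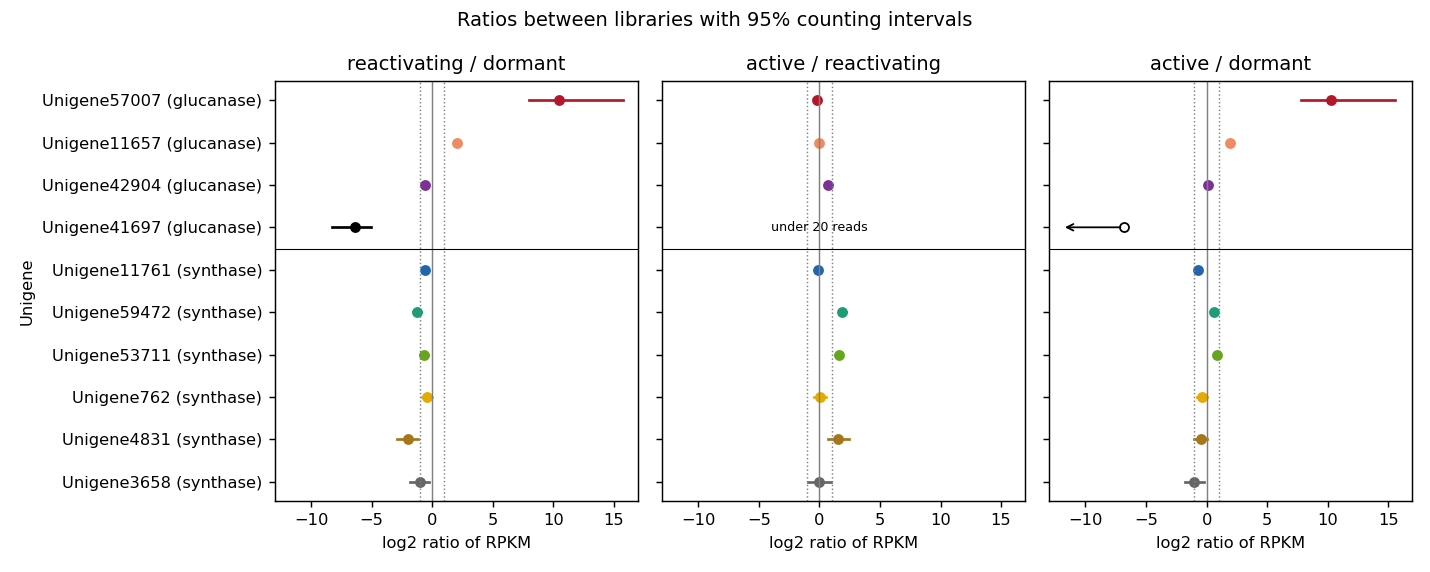
Log2 ratio of the RPKM levels of each unigene in the reactivating over dormant, active over reactivating and active over dormant libraries. Points are the ratios and bars the 95% counting intervals (smaller than the point where not seen). The open point with an arrow is a ratio whose library with 0 reads was set to 3 reads, and dotted lines mark 2-fold. The glucanases span from 84.8-fold lower to a ratio of 1434 in reactivating over dormant, and the synthases spread to the right in active over reactivating.

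A unigene was counted as higher or lower when its level differed at least 2-fold between 2 libraries that held at least 20 of its reads together. Between the reactivating and dormant libraries, 2 of the 10 members were higher (Unigene57007 and Unigene11657), against 16.9% of all 36274 unigenes measured, and 4 were lower (Unigene41697, Unigene59472, Unigene4831 and Unigene3658), against 13.8%. The members' median log2 ratio was -0.67, and that of all unigenes measured was 0.07. Split by enzyme, the median was 0.71 for the glucanases and -0.85 for the synthases, but the glucanase values ran from -6.41 to 10.49 and their median describes no member.

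Between the active and reactivating libraries, 3 of 9 measured members were higher, all callose synthases, against 6.76% of 36079 unigenes. None was lower, against 5.14%. The median log2 ratio was 0.06 for the members and -0.06 for all unigenes measured. Among the 6 synthases the median was 0.79, with values from -0.10 to 1.89. Their summed reads were 1687 in active against 1105 in reactivating cambium, a ratio of 1.53 (1.42 to 1.65), and without Unigene11761 they were 1008 and 374. Over the same step the xylem marker list had 16 of 25 measured unigenes higher and 0 lower, with a median of 3.12. Its part in the synthase difference was not tested.

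Between the active and dormant libraries, 2 of 10 members were higher (Unigene57007 and Unigene11657), against 18.1% of 36288 unigenes, and 1 was lower (Unigene41697), against 13.8%. The median log2 ratio was -0.14 for the members and 0.01 for all unigenes measured. All 6 synthases were within 2-fold, and their summed reads were 1687 in active against 1858 in dormant cambium. The order of the sums turned with the weighting, since per length they were 227 and 199 RPKM. It also turned without Unigene11761, which left 1008 and 726 reads, a ratio of 1.39 (1.26 to 1.53). The share of higher members was close to that of all unigenes in both comparisons with the dormant library.

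**Figure D3:**
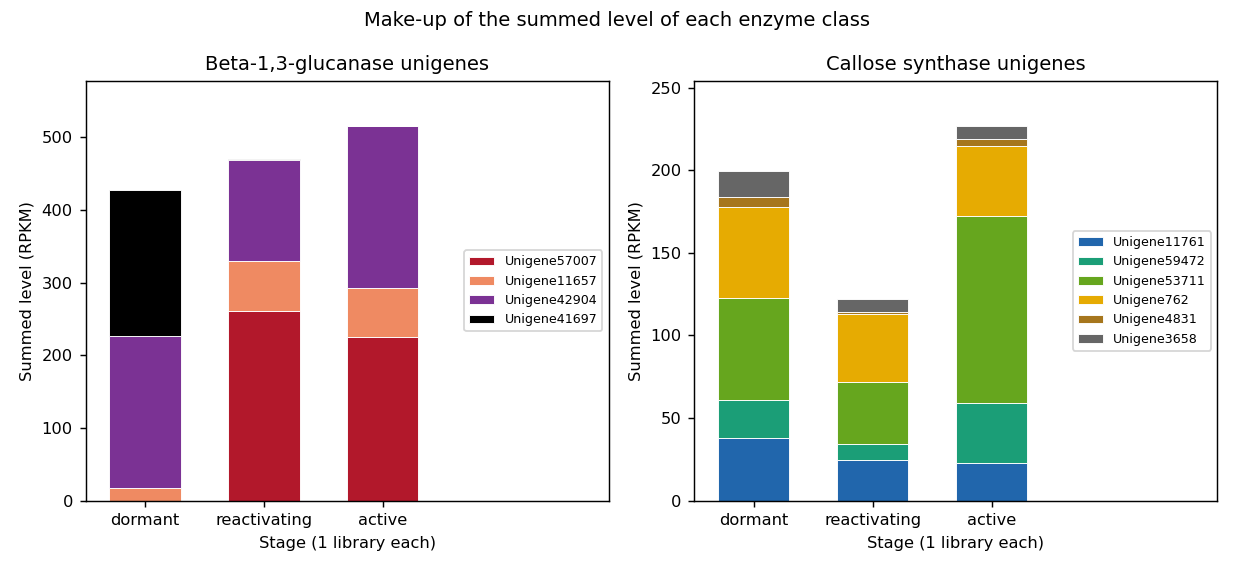
Summed level in RPKM of the 4 beta-1,3-glucanase unigenes (left) and the 6 callose synthase unigenes (right) in each library, with each unigene as a coloured part of the bar. The glucanase bars are of like height but change colour, while the synthase bar falls to 122 RPKM in the reactivating library, against 199 RPKM in dormant, and reaches 227 RPKM in active.

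Per length, the summed level of the 4 glucanases was 2.15, 3.86 and 2.27 times that of the 6 synthases (dormant, reactivating, active). These figures hold for the 10 members only and do not say which enzyme had more transcript in the tissue. Among unigenes that the matching missed, the synthase Unigene56308 had 142, 110 and 297 RPKM. The glucanase Unigene7821 had 34.9, 90.6 and 77.3 RPKM in the same libraries. Among the members, the high figure of the reactivating library rested on Unigene57007. Without it the figures were 2.15, 1.72 and 1.28 in the same order. Glucanases outside the 10 members are in neither set of figures. Of these, Unigene7821, Unigene13155 and Unigene12960 were also higher in the reactivating than in the dormant library, and Unigene997 was lower. Because several unigenes can be pieces of 1 transcript, such sums can count a gene more than once.

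Names that the matching missed add to both classes. They were looked for after the values had been seen, so they are a description only. Unigenes called glucan endo-1,3-beta-glucosidase, another name of the same enzyme, numbered 3. Unigene7821 had 989 reads in the reactivating against 381 in the dormant library, 2.60-fold higher (2.304 to 2.93). Unigene13155 had 421 against 65 reads and was 6.48-fold higher (4.98 to 8.54). The third, Unigene28372, is named after an acidic pathogenesis-related form and had 1 dormant, 12 reactivating and 20 active reads. Unigene12960, called a family 17 glycosyl hydrolase, had 155 reads in the reactivating library against 0 in the dormant one. With the 0 set to 3 reads that is 51.7-fold higher, and the counting interval starts at 41.5-fold. In the active library Unigene12960 had 165 reads. These courses lie nearer to those of Unigene57007 and Unigene11657 than to that of Unigene41697. The first unigene left out by read number, Unigene997, is a glucanase whose 56 reads were all in the dormant library, a course like that of Unigene41697. With its 0 reactivating reads set to 3, it was 18.7-fold lower in reactivating than in dormant, and the counting interval starts at 14.7-fold. With all these names together, 5 of 8 measured glucanases were higher and 2 lower in the reactivating than in the dormant library, where 16.9% and 13.8% of all unigenes were.

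On the synthase side, 6 unigenes called 1,3-beta-glucan synthase or glucan synthase like 3 lay outside the matching. The most read, Unigene56308, had 692 dormant, 539 reactivating and 1450 active reads, and was 2.69-fold higher (2.44 to 2.98) in active than in reactivating. Unigene52100 had 170, 95 and 346 reads and was 3.65-fold higher (2.90 to 4.63) over the same step. Both follow the course of Unigene53711 and Unigene59472. The other 4 stayed within 2-fold between active and reactivating. A further 22 unigenes carried the gene ontology term of beta-1,3-glucan metabolism under unnamed or general descriptions. Of these, 4 of 16 measured were higher and 0 lower in active than in reactivating, against 6.76% and 5.14% of all unigenes. In reactivating against dormant 1 of 15 was higher and 4 lower, against 16.9% and 13.8%. Unigene11284, a putative glycosyl transferase with 1139, 772 and 741 reads, kept a course close to that of Unigene11761. Unigene12175, a predicted protein, was the 1 that was at least 2-fold higher. It had 404 reads in the reactivating against 201 in the dormant library, 2.01-fold (1.69 to 2.39). Smaller differences in the same direction were seen for Unigene18955, 1.31-fold higher (1.14 to 1.51), and Unigene445, 1.17-fold higher (1.04 to 1.33). Of the 38 synthase unigenes by any of these names or the term, 30 were measured in active against reactivating. Of these, 9 were higher and 0 lower, beside 6.76% and 5.14% of all unigenes. The remaining 21 were within 2-fold. Pieces of 1 transcript can appear as several unigenes, so these counts can hold a gene more than once.

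**Figure D4:**
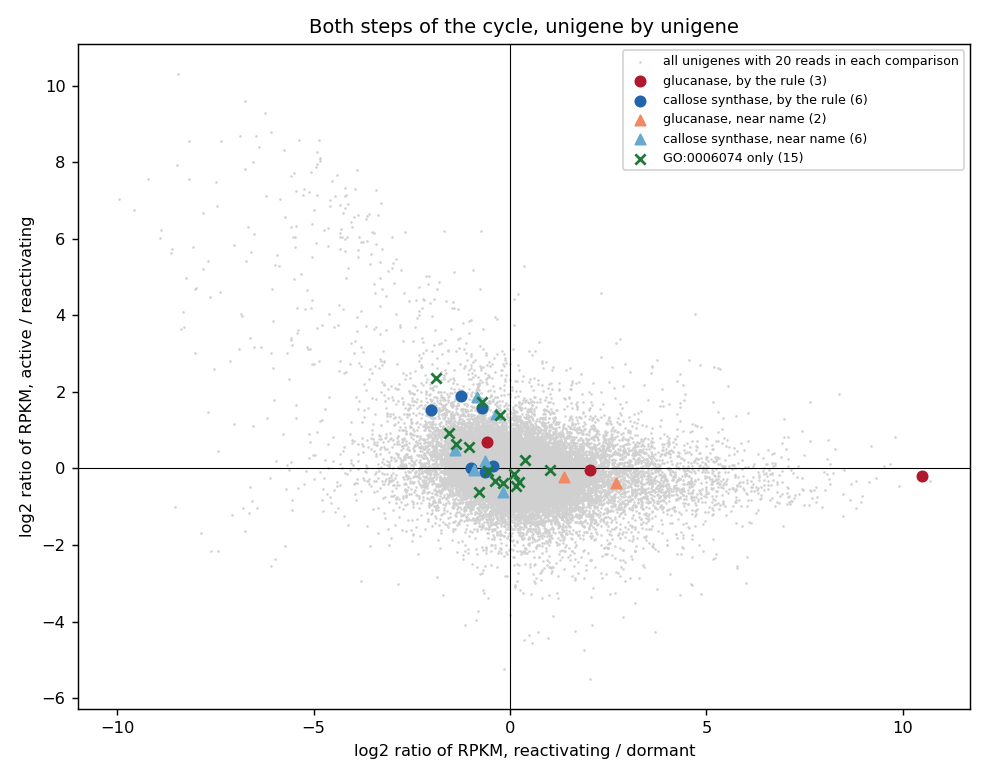
Log2 ratio of RPKM in reactivating over dormant (horizontal) against active over reactivating (vertical) for 34516 unigenes with at least 20 reads in each comparison (grey). Red and blue circles are the glucanase and callose synthase members (9 of 10 are shown, as Unigene41697 has too few reads), triangles the near names, and crosses the unigenes with the ontology term alone. Unigene57007 stands at the far right, and part of the synthases lie in the upper left, lower in reactivating and higher in active.

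The unigenes most like each member were sought among 2432 that had at least 200 reads and a description. Descriptions as unknown, hypothetical, unnamed, uncharacterized or predicted were left out, while bare locus names stayed in. The unigenes were ranked by the larger of the differences in log2 ratio over the steps from dormant to reactivating and from reactivating to active. With 3 libraries this measure is loose for members that move little: 173 unigenes were within 0.25 of Unigene11761 and 215 within 0.25 of Unigene762. None was within 0.5 of Unigene57007. The nearest to it were auxin-induced protein 5NG4 (Unigene54524), at a difference of 0.98, and an endo-beta-1,4-glucanase (Unigene47139), an enzyme that cuts other wall glucans, at 1.02. Unigene57007 and both of these had 1 dormant read each. The log2 ratio of Unigene57007 in reactivating over dormant has a counting interval of 8.01 to 15.8. Its differences over that step are therefore loose, and the lack of a unigene within 0.5 does not set it apart. Unigene41697 also had none within 0.5, and its nearest were a 3-hydroxy-3-methylglutaryl coenzyme A reductase (Unigene13583), an enzyme of isoprenoid synthesis, at 0.57 and a thaumatin-like protein (Unigene44483) at 0.61. Its step from reactivating to active had too few reads to be measured, with 4 reactivating reads and 0 active reads set to 3. The differences from Unigene41697 rest in part on that floor. The nearest to Unigene59472 were a 4-coumarate:CoA ligase (Unigene30094), an enzyme of lignin precursor synthesis, at 0.20, and a phenylcoumaran or pinoresinol reductase homologue (Unigene39744) at 0.24, with 12 unigenes within 0.5. For Unigene53711 a pollen allergen homologue (Unigene48940) was nearest at 0.12, followed by a hydroxycinnamoyltransferase (Unigene50956) at 0.23.

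Other genes that bear on callose were taken by name. Their counts stand beside the shares of all unigenes, 16.9% higher and 13.8% lower in reactivating against dormant, and 6.76% higher and 5.14% lower in active against reactivating. Of 12 unigenes for enzymes that make UDP-glucose, the substrate of callose and cellulose synthesis alike, 4 of 9 measured were higher and 0 lower in reactivating than in dormant (median log2 ratio 0.28). In active against reactivating 4 were higher and 1 lower (median -0.03). A UDP-glucose pyrophosphorylase (Unigene51755) had 1085 reads in reactivating against 1059 in dormant cambium, and a sucrose synthase (Unigene33279) of 219 bases had 491 and 223, 2.20-fold higher in reactivating. A longer sucrose synthase unigene of 2643 bases, Unigene7109, had 676 and 800 reads, 1.18-fold lower (1.07 to 1.31) in reactivating. A list for cytokinesis and the cell plate, where callose is laid down for a time, was drawn by names including any kinesin, dynamin or syntaxin. It is therefore not limited to cell plate genes, and its most read unigene was a kinesin heavy chain (Unigene14442). Of its unigenes, 9 of 18 measured were higher and 1 lower in reactivating than in dormant (median 0.94). Among them a protein regulator of cytokinesis (Unigene57967), which bundles microtubules in the dividing cell, had 215 reads in reactivating against 6 in dormant cambium, 35.8-fold higher. Another unigene of that name with more reads, Unigene58589, had 712 against 480 reads and stayed within 2-fold, at 1.48-fold higher (1.32 to 1.67). In active against reactivating this list had 2 of 20 higher and 0 lower (median 0.07), which is near the 6.76% of all unigenes and is no result about the list.

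The same shares of all unigenes (16.9% and 13.8%, then 6.76% and 5.14%) apply to the lists that follow. The other pathogenesis-related proteins, the class to which some beta-1,3-glucanases belong, had 6 of 13 measured unigenes higher and 7 lower in reactivating than in dormant (median -1.59). In active against reactivating 4 of 14 were higher and 1 lower (median -0.01). Their summed reads were 1010 in reactivating against 11675 in dormant cambium, but most of these belonged to Unigene42965 and Unigene44483, both thaumatin-like. Without this pair the sums were 842 and 2216, 2.63-fold lower (2.43 to 2.85) in reactivating, and the median log2 ratio of the other 11 turned to 1.06. The gibberellin list, named after a hormone that raises some glucanase genes in poplar buds, had 5 of 14 measured higher and 0 lower in reactivating than in dormant (median 0.59), and 1 of 15 higher and 3 lower in active than in reactivating (median -0.22), the share of higher ones being at the 6.76% of all unigenes. In it the GASA5-like Unigene46844 had 2110 reads in reactivating against 96 in dormant cambium, 22.0-fold higher. Of the tissue markers, the cambium list had 13 of 42 higher and 5 lower in reactivating than in dormant (median 0.29), the phloem list 0 of 3 higher and 2 lower (-3.21), the xylem list 9 of 20 higher and 8 lower (0.62) and the green tissue list 0 of 12 higher and 4 lower (-0.33). In active against reactivating the cambium list had 3 of 42 higher, at the 6.76% of all unigenes, and 0 lower (0.35), the phloem list 0 of 3 either way (0.25) and the green tissue list 1 of 9 higher and 0 lower (-0.26). The list for plasmodesmata and family 17 held 2 unigenes, of which Unigene12960 alone was measured.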

How the data were processed

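There is 1 deposited table a library, which gives per unigene, per the file headers, a count of uniquely mapped reads, an RPKM value, the coverage (percent of the length covered by reads), the length, gene ontology terms and the best protein hit. The deposited count is a raw whole number. RPKM as deposited matched the count divided by length and library total to a relative tolerance of 1e-06. The percent coverage was used as deposited. Per the labels' protocols, oligo(dT) beads enriched the messenger RNA, which was copied with random hexamers, and they describe no strand-specific step. Which assembler and mapper were used, and how reads shared by close copies were handled, is not given in the sources used here, and reads of close relatives may be missing from a unique count. Neither sequences nor a genome were used here.

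Where a table lacks a unigene, it counted as 0 reads. Ratios were taken between RPKM values in Python 3.11.15 with scipy 1.17.1, with 95% exact intervals from the reads, and a library at 0 was set to 3 reads, about 0.513 RPKM on 1 kilobase. PCR copies are not independent molecules, so intervals and limits cover counting error only. The ratio step was tested on simulated data. The members and lists were chosen with earlier results of these data known. Named unigenes are the members, the first one left out, and per list the 2 most read and the largest ratios each way (at least 100 reads), of which the text gives a part, and 1 list is not reported here. The near names and the ontology term of beta-1,3-glucan metabolism were added after the values were seen. Scaling by edgeR 4.0.16 TMM and DESeq2 1.42.0 size factors, other minimums, folds and lengths were alternatives.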

Additional observations from a re-analysis of the deposited data

How the results depend on the processing

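No paired analysis was possible because each stage has 1 library. Under other scalings or with 1 read added, 87 of 87 recomputed ratios of single members stayed within their counting intervals (filters cannot change a single ratio). Of 72 recomputed medians and summed ratios that the setting could change, 59 stayed within the counting interval of the sum or the median of the members' intervals. Of 72 recomputed counts of members 51 were the same and 4 changed by at most 1.5 times. Those 4 were 3 and 6 lower in reactivating than in dormant, against 4, with 1 read added and with all matches, and 2 higher in active than in reactivating, against 3, with a minimum of 100 reads and with intervals wholly beyond 2-fold. Shares of all unigenes were taken only at 2-fold and at least 20 reads. Counts under other scalings, minimums, folds or lengths therefore have no such share beside them and describe the members only. The larger changes follow. Members lower in active than in dormant numbered 2 with edgeR TMM and with DESeq2 scaling, against 1, because Unigene3658 lies at the 2-fold line. In reactivating against dormant, 2 members were lower, against 4, with a minimum of 100 reads, at 4-fold, with intervals wholly beyond 2-fold and with unigenes of at least 500 bases. At 4-fold, 0 members were higher in active than in reactivating and 1 in active than in dormant. With unigenes of at least 500 bases, 0 members were lower in active than in dormant, with a median log2 ratio of 0.76, and the summed glucanase log2 ratios were 3.46 (reactivating against dormant), -0.15 (active against reactivating) and 3.32 (active against dormant). With all 15 matches, 3 were lower in active than in dormant (median -0.50).

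The remaining alternatives were added after seeing the data. With near names and the beta-1,3-glucan ontology term, 5 of 37 measured unigenes were higher and 11 lower in reactivating than in dormant, against 16.9% and 13.8% of all unigenes. In active against reactivating 9 of 36 were higher, against 6.76%. In active against dormant 10 of 39 were higher and 4 lower, against 18.1% and 13.8%. As several unigenes can be pieces of 1 transcript, these counts can hold a gene more than once. The summed synthase log2 ratios were then -0.39 (reactivating against dormant) and 0.13 (active against dormant). Without Unigene57007, 1 member was higher in each comparison with dormant, and the summed glucanase log2 ratios were 0.24, 0.15 and 0.39 for reactivating against dormant, active against reactivating and active against dormant. Without Unigene11761 the summed synthase log2 ratios were -0.96, 1.43 and 0.47 in the same order. Members with few reads, such as Unigene3658 and Unigene4831, are limited by depth.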
